A study of Homo sapiens with 16 samples.

Results

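The genes described here are 32 that make, sense, move or export cholesterol, taken as the rows of the deposited count table with those symbols, out of 60603 genes in all. They comprise 18 enzymes of cholesterol synthesis, 7 genes of sterol sensing and transcriptional control, 4 genes of sterol transport and receptor turnover, and 3 enzymes of fatty acid synthesis under shared control. Total RNA came from 2 established lines of human acute myeloid leukaemia: SKNO-1, which carries the RUNX1-RUNX1T1 fusion, and the monocyte-like U-937. Each line was kept for 24 h with the solvent DMSO, with all-trans retinoic acid (ATRA, which activates retinoic acid receptors), with Corin (a dual inhibitor of the CoREST complex that acts on the demethylase LSD1 and on histone deacetylases 1 and 2), or with ATRA plus Corin. Each agent was at 0.1 µM, the figure that the DMSO libraries carry too, and each of the 8 groups has 2 libraries. Medium with fetal bovine serum, a source of lipoprotein cholesterol, was shared by all groups, while GM-CSF was added for SKNO-1 alone, so medium and line cannot be told apart. Nothing in the labels says that replicates came from separate cultures, so the p-values measure only the spread between these libraries. All 32 genes passed the filter on low counts in SKNO-1, and 30 passed in U-937, where HSD17B7 and ABCG1 did not.

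Cholesterol is built from acetyl-CoA through mevalonate, farnesyl diphosphate, squalene and lanosterol. When membranes of the endoplasmic reticulum are poor in sterol, the escort protein SCAP carries the SREBP precursors (encoded by SREBF1 and SREBF2) to the Golgi, where they are cut and released to switch on the enzyme genes. INSIG proteins hold SCAP back when sterol is plentiful. Oxysterols activate the liver X receptors LXRα (NR1H3) and LXRβ (NR1H2), which pair with retinoid X receptors and raise the efflux pumps ABCA1 and ABCG1, SREBF1, and MYLIP, a ubiquitin ligase that removes lipoprotein receptors from the cell surface. In monocytes and macrophages this pathway is best known for clearing excess cholesterol.

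Promoter letters are shown because members of the group moved together in SKNO-1 and because known elements of the pathway lie in this range. RefSeq promoters on GRCh38.p14 matched 27 of the 32 genes, and the 250 bases before each start site were searched on both strands for CCAAT (the box bound by NF-Y, a partner of SREBP), for TCACNCCAC (one form of the sterol regulatory element), for 2 copies of AGGTCA in a row 4 bases apart (the LXR type) and for the same 5 bases apart (the retinoic acid type). A relaxed LXR type, AGGTNA followed after 4 bases by NGGTCA, was added after the ABCA1 sequence had been seen. The relaxed form overlaps the strict one in what it can match. CCAAT stood in 20 of the 27 matched genes (74.1%), against 37.0% of the 27305 genes in the table. Of the 15 matched synthesis enzymes 13 held it, and 9 held at least 2 copies (60.0%), against 11.5% of all genes with at least 2. At least 2 copies also stood in 2 of 3 matched transport genes, 2 of 2 fatty acid enzymes and 0 of 7 control genes. Over all matched members this was 13 of 27 (48.1%). Members that did not fall with Corin in SKNO-1 held the box too: MYLIP, called higher, had 2 and EBP, not called, had 3. TCACNCCAC stood in SREBF2 alone among the matched members, against 1.09% of genes, and the relaxed repeat stood in ABCA1 alone, against 0.103%. No mismatch was allowed, so other forms of the sterol regulatory element, and any outside the 250 bases, were not counted. Both strict repeats matched no member and stood in 0.0183% (LXR type) and 0.00366% (retinoic acid type) of genes. Stretches follow for HMGCS1, LSS and MVK, which fell most with Corin in SKNO-1. NSDHL is shown because it shares the highest number of box matches with MVK, when overlapping matches are counted. SREBF2 and ABCA1 follow too, and the choice was made after values and matches were seen. Every enzyme stretch shown therefore holds the box, while the windows of CYP51A1 and PMVK hold 0. Each is read along the gene's strand from 200 bases before the start site and ended short of coding transcripts' exons in GENCODE 44. Capitals mark motif matches (ATTGG is CCAAT on the other strand).
HMGCS1, chr5:43313514-43313612, minus strand: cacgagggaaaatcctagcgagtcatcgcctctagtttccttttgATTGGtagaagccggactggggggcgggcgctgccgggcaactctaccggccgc
LSS, chr21:46228876-46228974, minus strand: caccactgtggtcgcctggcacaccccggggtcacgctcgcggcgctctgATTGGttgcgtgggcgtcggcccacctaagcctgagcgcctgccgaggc
MVK, chr12:109573594-109573783, plus strand: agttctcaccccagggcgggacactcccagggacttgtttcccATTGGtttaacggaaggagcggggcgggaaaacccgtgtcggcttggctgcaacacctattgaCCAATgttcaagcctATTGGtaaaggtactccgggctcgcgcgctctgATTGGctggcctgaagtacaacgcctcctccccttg
NSDHL, chrX:152830863-152830961, plus strand: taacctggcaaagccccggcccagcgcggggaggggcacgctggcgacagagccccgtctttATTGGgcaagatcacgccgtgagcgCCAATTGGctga
SREBF2, chr22:41832905-41833003, plus strand: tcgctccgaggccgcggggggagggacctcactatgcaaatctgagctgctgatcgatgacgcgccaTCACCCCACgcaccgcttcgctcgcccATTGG
ABCA1, chr9:104928166-104928355, minus strand: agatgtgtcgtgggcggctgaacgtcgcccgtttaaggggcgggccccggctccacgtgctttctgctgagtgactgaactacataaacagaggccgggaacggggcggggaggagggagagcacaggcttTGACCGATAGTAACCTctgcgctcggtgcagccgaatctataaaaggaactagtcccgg
In MVK 4 boxes lie in the stretch shown and the table's full window holds 5. The NSDHL window holds 5 matches too, but 2 of them overlap in CCAATTGG, which was counted on both strands. Start sites here are RefSeq's, and the MVK stretch lies inside the gene's span in GENCODE 44, which begins at chr12:109573255. In ABCA1 the match begins 69 bases before the start site, on the opposite strand. A match of letters describes the window and is neither a bound site nor a cause, and binding was not measured in these data.

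Library totals ran from 28.4 to 37.8 M estimated counts. The SKNO-1 DMSO libraries stood apart from each other: the SD of their log2 difference was 0.361 across 9330 genes, against 0.108 to 0.132 in the other SKNO-1 groups and 0.143 to 0.208 in U-937, and the difference followed the genes' GC content (r = 0.796 across genes, which are not independent replicates). The counts over the 32 genes in comparisons with these libraries are therefore given with and without each of them. RUNX1T1 was at 18.2 to 41.3 TPM in SKNO-1 and at or under 0.03 TPM in U-937, while HOXA9 and HOXA10, expressed in all 8 U-937 libraries, were at 0 TPM in all 8 of SKNO-1. Summed markers of T cells and erythroid cells stayed at or under 0.16 TPM in both lines, of fibroblasts at or under 1.54 TPM and of B cells at or under 4.58 TPM. The myeloid markers SPI1, CD33 and LYZ summed to 229 to 1789 TPM in U-937 and 89.6 to 315 TPM in SKNO-1.

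Levels per gene length, in the authors' TPM (transcripts scaled to a fixed library sum), were ordered within each line with DMSO. In SKNO-1, FDFT1 (squalene synthase) led at 187 ± 36.6 TPM (SD, n = 2), followed by FDPS (farnesyl diphosphate synthase) at 184 ± 40.6 TPM and HMGCS1 (HMG-CoA synthase) at 141 ± 35.0 TPM, and the ranges of neighbours among these overlapped. The lowest SKNO-1 levels were those of TM7SF2, a sterol reductase, at 3.90 ± 0.25 TPM, NR1H3 at 2.88 ± 0.76 TPM and ABCA1 at 0.91 ± 0.47 TPM, each clear of its neighbour. In U-937, SCD (stearoyl-CoA desaturase) at 431 ± 0.33 TPM and FDPS at 424 ± 21.7 TPM overlapped, with FDFT1 at 398 ± 4.1 TPM and INSIG1 at 317 ± 12.5 TPM next in order, each without overlap. At the bottom in U-937, ABCG1 at 0.070 ± 0.014 TPM, ABCA1 at 0.055 ± 0.064 TPM and HSD17B7 at 0.035 ± 0.049 TPM could not be ordered.

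Between the lines under DMSO, 24 of 32 genes differed (11 higher in U-937 and 13 lower; 64.8% of all 19872 genes tested were called, 31.7% higher and 33.1% lower). A call here and below is an adjusted p under 0.05 in the quasi-likelihood test of edgeR. The number was 25 without the first SKNO-1 DMSO library and 23 without the second. INSIG1, the sterol sensor (chr7:155297776-155310235), was higher in U-937 by 2.88 ± 0.090 log2 (SE; edgeR adjusted p = 1.46e-15). ACAT2, the thiolase that opens the pathway (chr6:159762045-159779112), was higher by 2.02 ± 0.095 log2 (edgeR adjusted p = 5.37e-13); it overlaps 2 coding genes on the other strand, and the strand setting of the counting is not given in the sources used here. HSD17B7, a sterol ketoreductase (chr1:162790702-162812823), had between 373 and 677 counts in every SKNO-1 library and between 0 and 2 in every U-937 library. With DMSO this was 1255 counts against 1, a ratio of 1025 with an exact 95% interval from 184 to 40508 that covers counting error only. Its near-copy HSD17B7P2, a pseudogene with which reads can be shared, had 78.1 to 127 counts in SKNO-1 and 0 in all 8 U-937 libraries. ABCG1 (chr21:42199689-42297244) was lower in U-937, at -6.82 ± 0.30 log2, as was ABCA1 (chr9:104781006-104928155), at -6.14 ± 0.29 log2, on 6 and 4 counts of ABCG1 and 4 and 5 of ABCA1 in the U-937 libraries (edgeR adjusted p = 3.38e-13 and 5.76e-13). In bulk RNA, fewer cells with a transcript and less of it per cell cannot be told apart, here and in every comparison that follows.

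**Figure D1:**
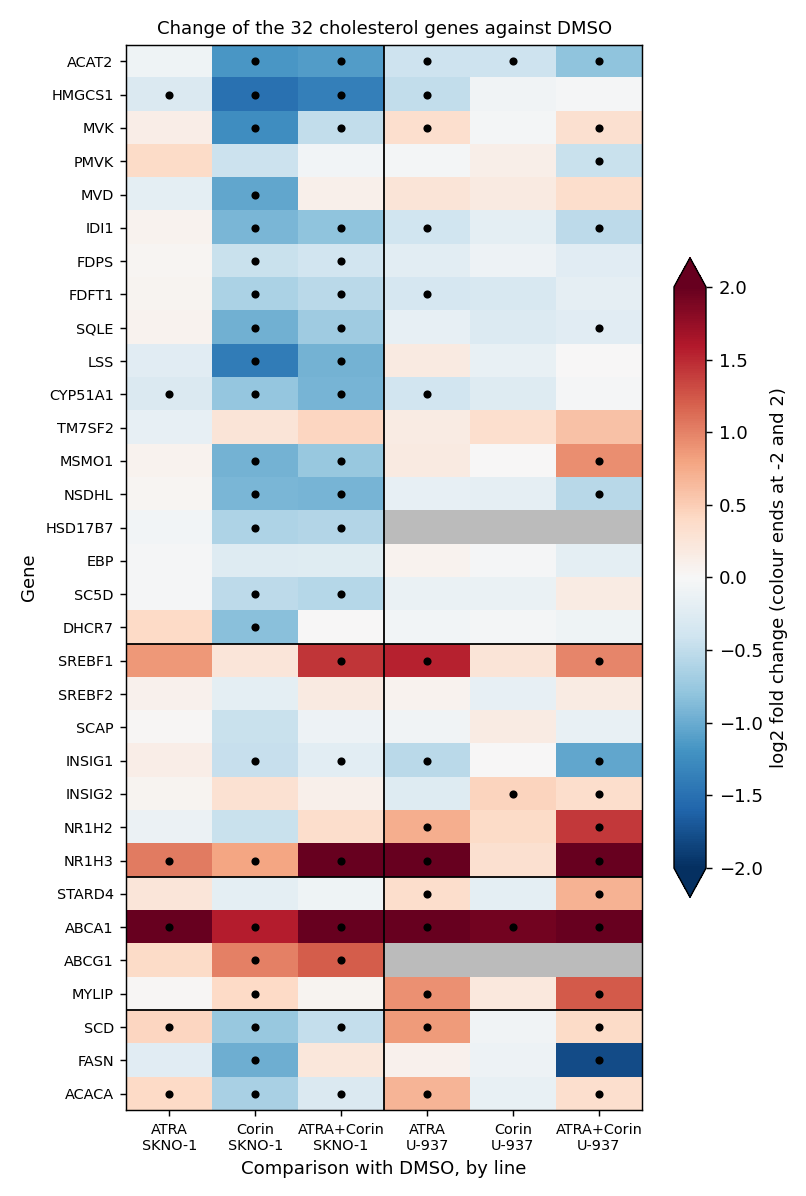
Each row is 1 of the 32 genes and each column 1 comparison with DMSO; colour is the log2 fold change (ends at -2 and 2), dots mark edgeR adjusted p under 0.05, grey marks genes not tested, and lines part synthesis enzymes, sensing and control, transport and receptor turnover, and fatty acid enzymes. The SKNO-1 Corin column holds 15 called falls among the 18 synthesis enzymes, the U-937 Corin column holds 1, and ABCA1 is called higher in all 6 columns.

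With Corin in SKNO-1, 15 of the 18 synthesis enzymes fell and 0 rose, and their median log2 fold change was -0.87 against 0.00 over all genes. Among all 32 genes 23 were called, 19 lower and 4 higher, where 37.9% of the 17479 genes tested were called, 17.3% lower and 20.5% higher. The falls covered every stage of the route. HMGCS1, which condenses acetoacetyl-CoA to HMG-CoA (chr5:43287470-43313512), was at 375 and 399 CPM (counts scaled by library size with TMM within a line) with DMSO and at 139 and 136 CPM with Corin. Its Corin libraries lay below both DMSO libraries, a fall of 1.49 ± 0.058 log2 (edgeR adjusted p = 3.34e-06). LSS, which closes squalene epoxide into lanosterol (chr21:46188141-46228824), went from 89.6 and 64.7 CPM to 28.7 and 29.7 CPM. The groups did not overlap although the DMSO libraries were far apart, and the fall was 1.40 ± 0.14 log2 (edgeR adjusted p = 0.0002). MVK, mevalonate kinase (chr12:109573255-109598125), went from 16.7 and 12.2 CPM to 6.24 and 5.99 CPM, again without overlap, a fall of 1.24 ± 0.16 log2 (edgeR adjusted p = 0.000699). MVK overlaps a coding gene on the other strand, so reads of the pair may be mixed.

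The other 12 falls ran from 0.44 log2 in FDPS to 1.17 log2 in ACAT2. ACAT2 was at 56.0 and 57.9 CPM with DMSO and at 26.0 and 24.8 CPM with Corin. SQLE, squalene epoxidase and a rate-limiting step, was at 290 and 301 CPM and then at 155 and 147 CPM (a fall of 0.97 ± 0.055 log2). Among the enzymes that finish the sterol ring, MSMO1 fell by 0.94, NSDHL by 0.91, DHCR7 by 0.84, CYP51A1 by 0.77, HSD17B7 by 0.62 and SC5D by 0.52 on the log2 scale; CYP51A1 overlaps a larger coding gene and its counts are model estimates. The 3 enzymes that did not pass were PMVK at -0.43 log2 (edgeR adjusted p = 0.0654), EBP at -0.26 log2 (0.0999) and TM7SF2 at 0.25 log2 (0.526). Without the first DMSO library 15 enzymes were called lower and 27 of the 32 genes were called, and without the second these were 17 and 29. The myeloid markers summed to 109 and 148 TPM with DMSO and to 315 and 295 TPM with Corin in SKNO-1, and to 229 and 262 TPM and then 1789 and 1706 TPM in U-937; their part in the fall was not tested.

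**Figure D2:**
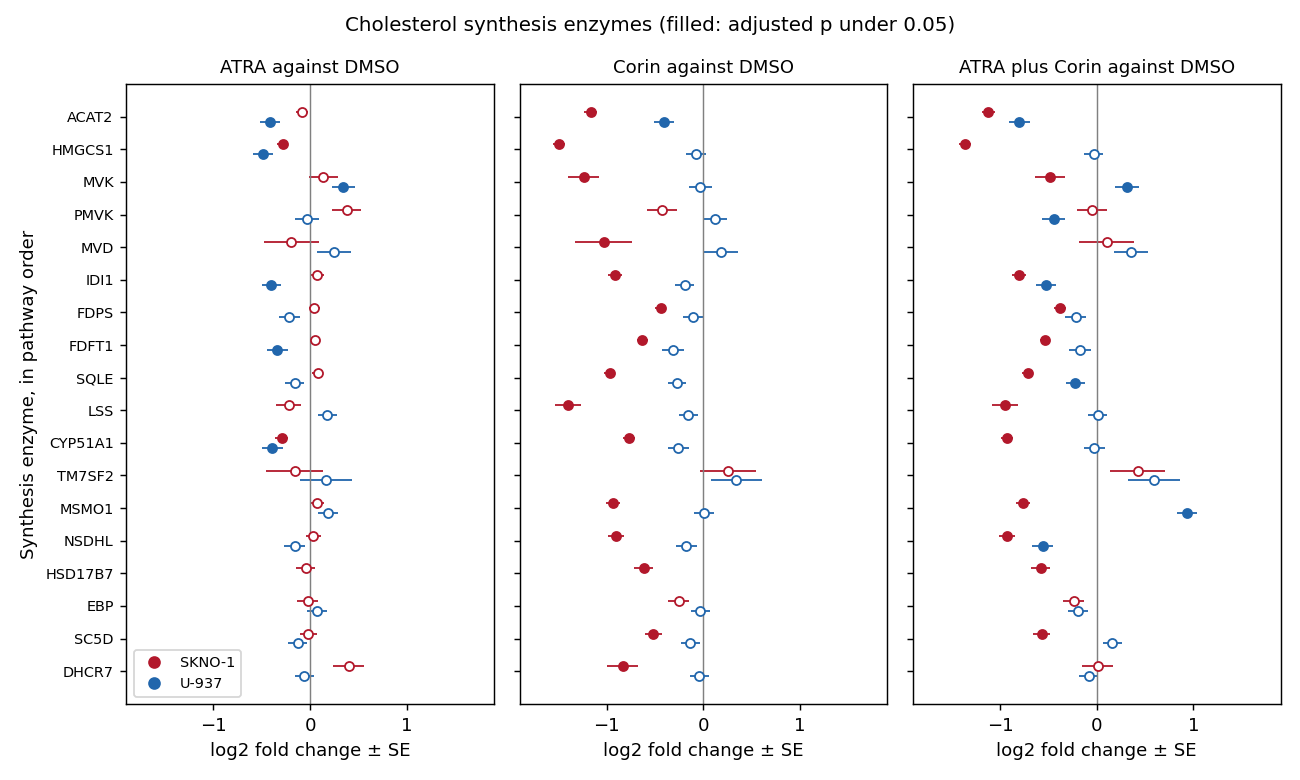
Each row is 1 synthesis enzyme in pathway order and each panel 1 treatment against DMSO; points are log2 fold changes with SE bars, SKNO-1 in red and U-937 in blue, filled where the edgeR adjusted p is under 0.05. With Corin the red points reach -1.49 in HMGCS1 while the blue points lie between -0.41 and 0.34.

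When ATRA was present as well, the enzymes still stood lower in SKNO-1. ATRA plus Corin against DMSO gave 13 enzymes lower and 0 higher (median -0.57 log2), and 20 of the 32 genes were called, 16 lower and 4 higher, where 46.7% of all genes were (22% lower and 24.7% higher). HMGCS1 was at 148 and 153 CPM, a fall of 1.36 ± 0.058 log2, and LSS at 39.6 and 40.2 CPM, a fall of 0.95 ± 0.135 log2 (edgeR adjusted p = 2.58e-06 and 0.000873). ACAT2 was at 25.9 and 26.4 CPM, a fall of 1.12 ± 0.068 log2. All 3 stood below both DMSO libraries. Without the first DMSO library 12 enzymes were called lower and 27 genes were called, and without the second 15 and 23. Against ATRA alone, a difference between libraries other than DMSO (which enter through the shared estimate of spread), 13 enzymes were lower and 0 higher (median -0.60 log2), and 20 of 32 genes were called, 17 lower and 3 higher, where 44.8% of all genes were (21.8% lower and 23% higher). These 13 were 86.7% of the 15 that fell with Corin against DMSO, compared between other libraries but within the same fit. All 13 (100%) lay among those 15. DHCR7 and MVD, mevalonate diphosphate decarboxylase, were in the Corin list alone. The overlap of both comparisons over all genes was not counted, so whether these shares are particular to the enzymes was not tested. HMGCS1 fell by 1.08 ± 0.058 log2 and ACAT2 by 1.04 ± 0.068 log2 against ATRA. Without either DMSO library 16 enzymes were called lower and 29 genes were called.

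Adding ATRA to Corin in SKNO-1 raised 4 enzymes. MVD rose by 1.13, DHCR7 (which makes cholesterol in the last step) by 0.84, MVK by 0.76 and SQLE by 0.25 on the log2 scale against Corin alone, with edgeR adjusted p-values of 0.0499, 0.0176, 0.0245 and 0.0268. DHCR7 was at 51.2 and 44.5 CPM with Corin and at 85.2 and 86.7 CPM with both agents, inside the span of its DMSO libraries at 101 and 69.5 CPM. In this comparison 12 of 32 genes were called, 11 higher and 1 lower, where 10.4% of all genes were called (4.82% higher and 5.6% lower). Single libraries decided this number, which became 2 without either library of both agents or either Corin library, 6 without either ATRA library and 23 without either DMSO library, which enters only through the shared estimate of spread.

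ATRA alone moved few of the enzymes in SKNO-1. HMGCS1 fell by 0.28 ± 0.057 log2 and CYP51A1, lanosterol demethylase, by 0.30 ± 0.063 log2 (edgeR adjusted p = 0.0216 and 0.0283), and 16 did not pass. Over all 32 genes 6 were called, 4 higher and 2 lower, where 6.76% of all genes were (2.96% higher and 3.79% lower). That count was 2 without either ATRA library, 15 without the first DMSO library and 14 without the second, and both falls failed the threshold when either ATRA library or either library of both agents was left out. HMGCS1 was at 324 and 311 CPM and CYP51A1 at 277 and 267 CPM, each below both DMSO libraries (375 and 399, and 325 and 344 CPM). The HMGCS1 call also failed without either Corin library (adjusted p = 0.0647 and 0.0642), and both calls failed with library totals, with the replicate block (0.0576 for HMGCS1 and 0.065 for CYP51A1) and with only the libraries compared.

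In U-937, 1 enzyme of the 17 tested passed with Corin. ACAT2 fell by 0.41 ± 0.10 log2 (240 and 266 CPM with DMSO, 203 and 178 CPM with Corin; edgeR adjusted p = 0.00915), the other 16 did not pass, and the median over all 17 was -0.10 log2. Of the 17, 13 had a negative value and 4 an unadjusted p under 0.05, and the number called lower was 3 with DESeq2, 4 with library totals and 4 with the GC trend removed. Among 30 tested genes 3 were called, 2 higher and 1 lower, where 12.9% of the 17717 genes were (8.55% higher and 4.4% lower). HMGCS1 was at 226 and 234 CPM with DMSO and at 225 and 211 CPM with Corin, so the groups nearly met, with a difference of -0.08 ± 0.10 log2 (edgeR adjusted p = 0.682). The ACAT2 call was lost without the second Corin library (adjusted p = 0.115) or the second DMSO library (0.139), and the number of enzymes lower was 3 and 2 without the first and second library of both agents and 2 without the first Corin library.

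The difference in the Corin effect between the lines was tested directly. It was positive, meaning less fall or more rise in U-937, in 15 of 32 genes and negative in 0, where 5.28% of all 19872 genes were called positive, 7.49% negative and 12.8% either way. Of the 18 enzymes 11 were called (11 without the first SKNO-1 DMSO library, 15 without the second and 8 without the second SKNO-1 Corin library), with a median difference of 0.73 log2 over the list. HMGCS1 differed by 1.42 ± 0.12 log2 and LSS by 1.24 ± 0.16 log2 (edgeR adjusted p = 2.46e-07 and 2.27e-05). FDPS, FDFT1 and SC5D fell in SKNO-1, did not pass in U-937, and their difference between the lines did not pass either. For HSD17B7, nearly absent from U-937, no difference can be read. The count of 15 ran from 10 without the second SKNO-1 Corin library to 20 without the second SKNO-1 DMSO library, and was 14 without the first.

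ATRA in U-937 lowered 5 enzymes modestly: HMGCS1 by 0.49, ACAT2 by 0.41, IDI1 (isopentenyl diphosphate isomerase) by 0.40, CYP51A1 by 0.39 and FDFT1 by 0.34 on the log2 scale. MVK rose by 0.34 ± 0.12 log2 (edgeR adjusted p = 0.0234). Over 30 tested genes 15 were called, 9 higher and 6 lower, where 41.8% of all genes were (21.7% higher and 20.1% lower), so the share of the group is near that of all genes. The 5 enzymes became 2 without the first ATRA library or the second DMSO library. HMGCS1 was at 162 and 165 CPM with ATRA and ACAT2 at 188 and 192 CPM, each below both DMSO libraries. The ACAT2 call failed without the second DMSO library (edgeR adjusted p = 0.0515).

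With both agents in U-937 the enzymes moved in both directions. MSMO1, the sterol C4-methyl oxidase (chr4:165327667-165343164), was at 59.5 and 63.9 CPM with DMSO, 70.9 and 69.4 CPM with ATRA, 66.6 and 57.1 CPM with Corin, and 112 and 125 CPM with both. It stood above every other U-937 library, a rise of 0.94 ± 0.10 log2 against DMSO (edgeR adjusted p = 2.5e-08). In SKNO-1 it went the other way, from 80.8 and 88.7 CPM to 49.9 and 50.1 CPM, and the difference between the lines was 1.74 ± 0.14 log2 (edgeR adjusted p = 5.99e-09). NSDHL, its partner in removing the C4 methyl groups, fell in U-937 by 0.56 ± 0.11 log2. ACAT2 fell by 0.80 (to 135 and 156 CPM), IDI1 by 0.53, PMVK by 0.45 and SQLE by 0.22, and MVK rose by 0.31, on the log2 scale. In total 18 of 30 tested genes were called, 11 higher and 7 lower, where 65.3% of all genes were (33.1% higher and 32.2% lower), a share close to the background. Against ATRA alone 18 of 30 were called, 9 each way, where 47.4% of all genes were (22.5% higher and 24.8% lower). Against Corin alone 19 of 30 were called, 12 higher and 7 lower, where 60.5% of all genes were (29.9% higher and 30.6% lower). HMGCS1 was higher by 0.46 ± 0.10 log2 with both agents than with ATRA. Among enzymes 4 were called lower against ATRA (ACAT2, PMVK, NSDHL and EBP), and 0 without the first library of both agents or 1 without the second ATRA library.

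**Figure D3:**
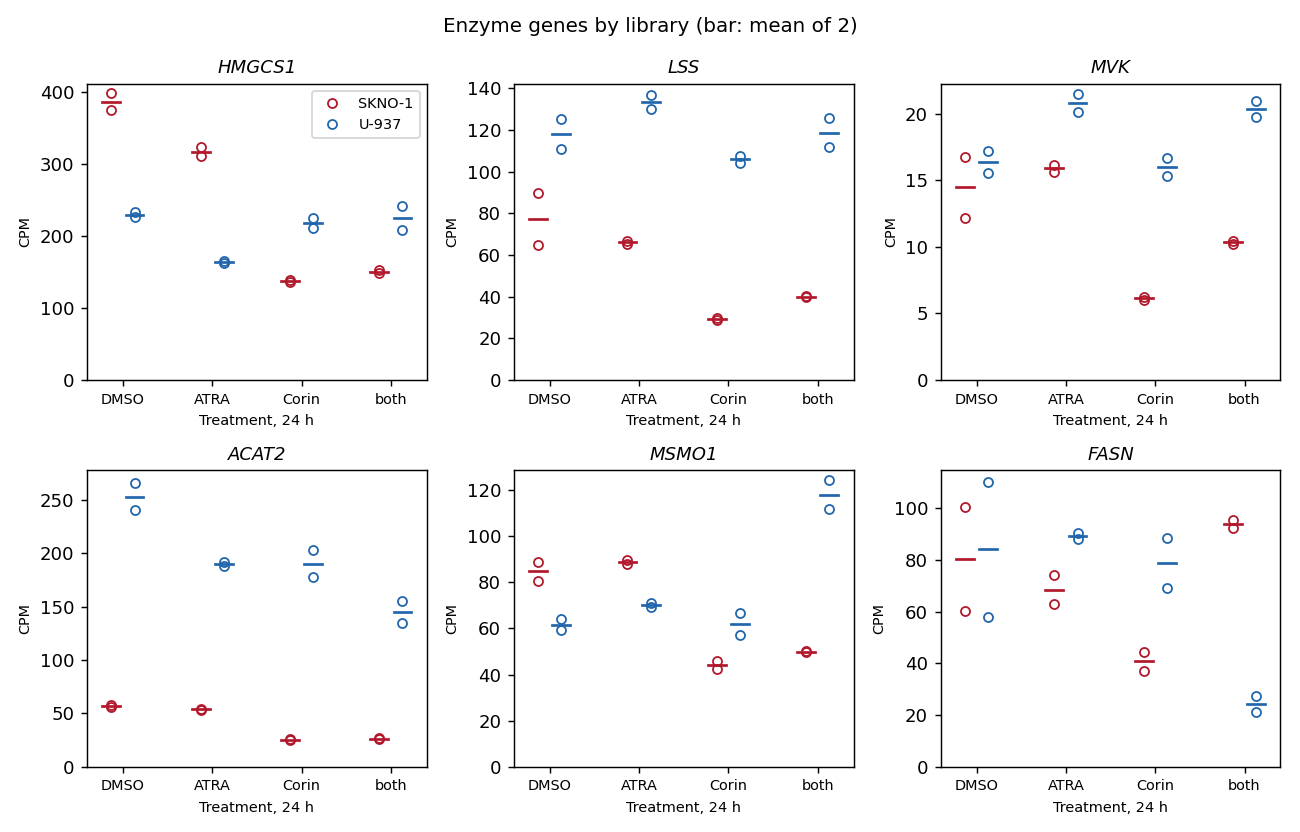
Each panel gives 1 gene in CPM (linear axis from 0, scaled within each line, so heights are not compared between lines) by treatment; circles are libraries and bars means of 2, SKNO-1 in red and U-937 in blue. HMGCS1, LSS, MVK and ACAT2 stand lowest with Corin or both agents in SKNO-1, MSMO1 stands highest with both agents in U-937 (112 and 125 CPM), and the DMSO libraries for FASN are far apart in both lines.

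Among the sensors and regulators the SREBP genes split. SREBF1, whose products include the LXR-driven SREBP-1c (chr17:17810399-17837002), was at 32.2 and 23.6 CPM with DMSO in U-937, at 81.9 and 80.2 CPM with ATRA, at 32.2 and 35.0 CPM with Corin and at 60.4 and 49.5 CPM with both. The ATRA and combined libraries lay above both DMSO libraries, by 1.54 ± 0.13 and 0.98 ± 0.13 log2 (edgeR adjusted p = 2.45e-08 and 2.87e-06). With both agents against ATRA alone it fell by 0.56 ± 0.13 log2. In SKNO-1 it was at 16.1 and 9.37 CPM with DMSO, 21.7 and 24.7 CPM with ATRA, 15.4 and 14.7 CPM with Corin, and 33.5 and 35.0 CPM with both. The combined libraries were above all others, by 1.43 ± 0.21 log2 against DMSO (edgeR adjusted p = 0.00115), and ATRA alone gave 0.87 ± 0.21 log2 (edgeR adjusted p = 0.0544). SREBF1 overlaps a coding gene on the other strand, so reads of the pair may be mixed.

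SREBF2, the main SREBP of the cholesterol enzymes (chr22:41833105-41907306), did not pass in any of the 6 comparisons with DMSO; its values lay between -0.20 and 0.19 log2. It was at 140 and 118 CPM with DMSO and at 112 and 113 CPM with Corin in SKNO-1, ranges that did not overlap (-0.20 ± 0.082 log2, edgeR adjusted p = 0.0952). Against Corin alone it was higher with both agents in SKNO-1 (by 0.38 log2) and in U-937 (by 0.33 log2). SCAP did not pass in any comparison with DMSO either, at 71.0 and 48.5 CPM with DMSO and 43.8 and 43.7 CPM with Corin in SKNO-1 (-0.45 ± 0.16 log2, edgeR adjusted p = 0.0529).

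INSIG1, itself a target of SREBP, was lower in each comparison with DMSO that passed. In U-937 it was at 756 and 789 CPM with DMSO, 523 and 535 CPM with ATRA, 796 and 757 CPM with Corin and 359 and 395 CPM with both. The ATRA and combined libraries lay below the rest, and the gene fell by 0.55 ± 0.11 and 1.04 ± 0.11 log2 (edgeR adjusted p = 0.000189 and 8.16e-09). In SKNO-1 the levels were 93.7 and 98.2, 102 and 108, 71.2 and 68.9, and 85.9 and 79.8 CPM in the same order of treatments. It fell by 0.45 ± 0.067 log2 with Corin and by 0.21 ± 0.067 log2 with both (edgeR adjusted p = 0.00143 and 0.032). The latter was lost when either library of both agents (0.0599 and 0.202) or either Corin library (0.0561 and 0.0559) was left out. It was also lost with the replicate block (0.0587), with library totals (0.0541) and with only the libraries compared (0.134). The ATRA effect on INSIG1 in U-937 minus that in SKNO-1 was -0.63 log2 and the combined effect -0.78 log2, while for Corin the difference was 0.46 log2. INSIG2, the second INSIG (chr2:118088452-118110997), rose in U-937 with Corin by 0.45 ± 0.10 log2, from 30.4 and 29.96 to 39.5 and 43.1 CPM, and with both agents by 0.35 ± 0.10 log2, to 39.3 and 37.7 CPM. The latter was 0.23 log2 and not called with library totals in place of TMM (edgeR adjusted p = 0.066). In SKNO-1 its libraries ranged from 11.9 to 17.5 CPM and no comparison with DMSO passed.

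NR1H3, which encodes LXRα (chr11:47248300-47269033), gave the clearest change among the receptors. In U-937 it was at 3.54 and 3.56 CPM with DMSO, 22.1 and 25.5 CPM with ATRA, 4.68 and 4.11 CPM with Corin, and 29.2 and 27.3 CPM with both. It rose by 2.74 ± 0.15 log2 with ATRA and by 2.99 ± 0.15 log2 with both (edgeR adjusted p = 2.8e-13 and 1.07e-14), and Corin gave 0.31 ± 0.16 log2 (0.222). In SKNO-1 it was at 3.21 and 2.90, 6.24 and 6.27, 5.33 and 5.17, and 14.6 and 13.9 CPM with DMSO, ATRA, Corin and both. No 2 of those groups overlapped, and the rises were 1.04 ± 0.13, 0.78 ± 0.13 and 2.23 ± 0.13 log2 (edgeR adjusted p = 0.0021, 0.00225 and 1.06e-05). The ATRA call in SKNO-1 was lost with only the libraries compared (edgeR adjusted p = 0.0695). The ATRA effect was larger in U-937 by 1.75 ± 0.20 log2 (edgeR adjusted p = 3.19e-06). NR1H2, which encodes LXRβ, rose in U-937 with ATRA by 0.72 ± 0.15 log2 (9.24 and 6.79 to 12.2 and 14.3 CPM) and with both by 1.42 ± 0.15 log2 (22.6 and 20.3 CPM). In SKNO-1 its DMSO libraries were at 16.8 and 7.53 CPM, a span that held the libraries of every other group, and no comparison with DMSO passed. Both receptor genes overlap coding genes on the other strand.

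**Figure D4:**
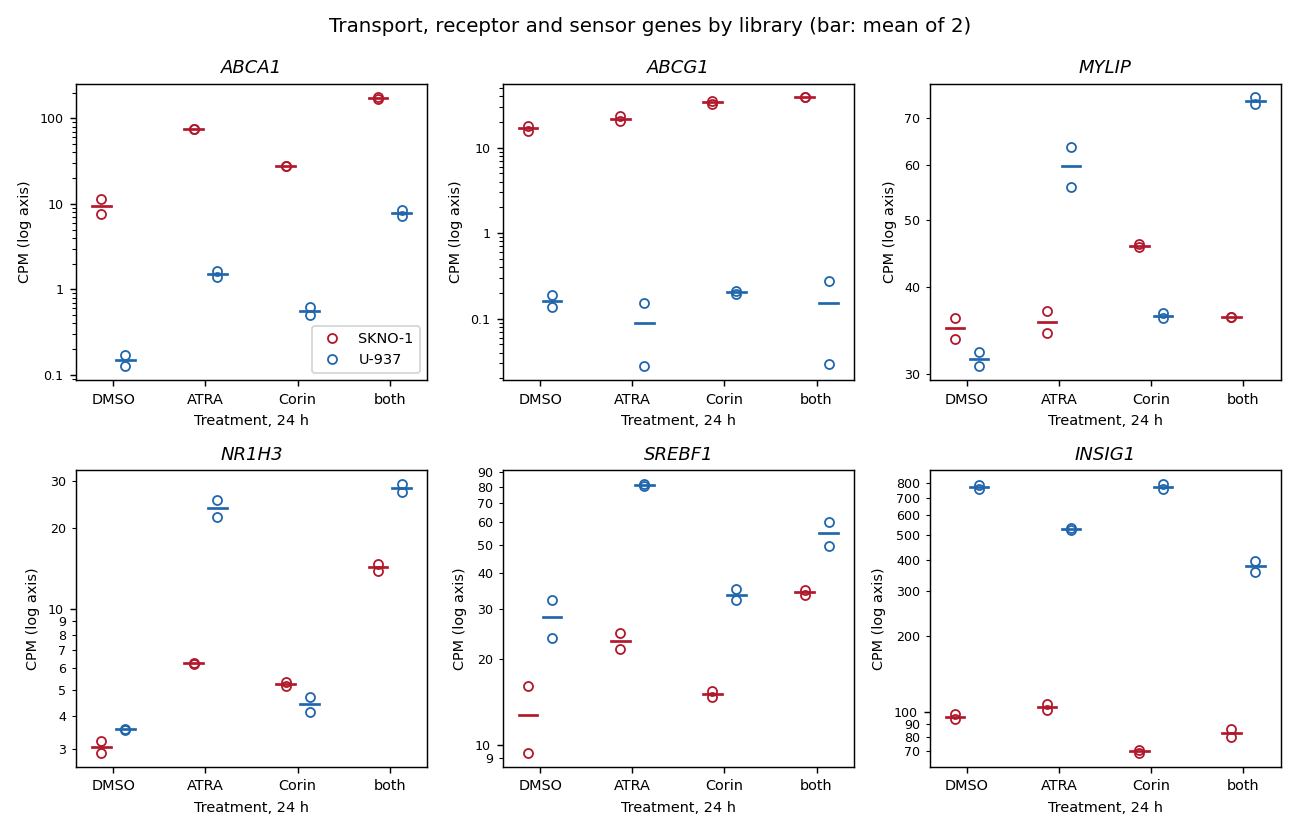
Each panel gives 1 gene in CPM on a log axis (scaled within each line, so heights are not compared between lines) by treatment; circles are libraries and bars means of 2, SKNO-1 in red and U-937 in blue. ABCA1 is lowest with DMSO and highest with both agents in each line, NR1H3 rises from 3.54 and 3.56 to 22.1 and 25.5 CPM with ATRA in U-937, and ABCG1 stays under 0.28 CPM in U-937.

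ABCA1, which loads cellular cholesterol onto apolipoprotein A-I, was called higher in all 6 comparisons with DMSO, alone among the 32 genes. In SKNO-1 it was at 7.52 and 11.3 CPM with DMSO, 27.6 and 28.1 CPM with Corin, 75.6 and 76.1 CPM with ATRA, and 178 and 167 CPM with both. The 4 groups did not overlap, and the rises were 8.06-fold with ATRA, 2.96-fold with Corin and 18.3-fold with both (3.01 ± 0.16, 1.56 ± 0.15 and 4.19 ± 0.16 log2; edgeR adjusted p = 3.3e-05, 0.000216 and 1.7e-06). In U-937 the gene started from 4 and 5 counts with DMSO (0.125 and 0.170 CPM) and reached 59 and 46 counts with ATRA, 19 and 19 with Corin, and 245 and 246 with both (7.25 and 8.45 CPM). The order of the groups was the same as in SKNO-1. The rises were 3.37 ± 0.39, 1.93 ± 0.45 and 5.74 ± 0.35 log2 (edgeR adjusted p = 2.11e-07, 0.00469 and 5.6e-13), on levels far below those of SKNO-1, and the Corin call was lost without the first DMSO library (adjusted p = 0.0701). The combined effect was larger in U-937 by 1.59 ± 0.45 log2 (edgeR adjusted p = 0.00808), a difference that also failed without that library (0.0832).

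ABCG1, which exports cholesterol to mature lipoproteins, rose in SKNO-1 with Corin and with both agents. It was at 18.1 and 15.6 CPM with DMSO, 20.3 and 23.4 CPM with ATRA, 35.0 and 32.9 CPM with Corin, and 39.0 and 39.2 CPM with both, a rise of 1.01 ± 0.11 log2 with Corin and 1.21 ± 0.11 log2 with both (edgeR adjusted p = 0.000291 and 8.72e-05). The ATRA libraries were above both DMSO libraries, at 0.38 log2, and did not pass. U-937 libraries held between 1 and 8 counts, and no treatment effect is given there.

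MYLIP, the receptor-degrading ligase (chr6:16129086-16148248), rose with ATRA in U-937 and not in SKNO-1. In U-937 it was at 30.8 and 32.3 CPM with DMSO, 63.7 and 55.7 CPM with ATRA, 36.1 and 36.7 CPM with Corin, and 75.0 and 73.2 CPM with both, which is 0.92 ± 0.10 log2 for ATRA and 1.23 ± 0.10 log2 for both (edgeR adjusted p = 1.17e-07 and 2.24e-10). In SKNO-1 it was at 33.7 and 36.1, 34.4 and 36.9, 45.6 and 46.2, and 36.2 and 36.2 CPM in the same order, and Corin alone raised it, by 0.39 ± 0.074 log2 (edgeR adjusted p = 0.00451). The ATRA effect differed between the lines by 0.93 ± 0.13 log2 (edgeR adjusted p = 4.04e-05). STARD4, which carries cholesterol between membranes (chr5:111496033-111512590), was at 70.5 and 74.2 CPM with DMSO in U-937, 90.6 and 93.8 CPM with ATRA, 63.0 and 63.1 CPM with Corin and 115 and 119 CPM with both. It rose by 0.35 ± 0.093 log2 with ATRA, a call lost without the second ATRA library (edgeR adjusted p = 0.0809) or the first DMSO library (0.0528), and by 0.69 ± 0.094 log2 with both (edgeR adjusted p = 6.48e-07). In SKNO-1 it ranged from 63.3 to 90.3 CPM and passed in no comparison with DMSO.

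The fatty acid enzymes fell with Corin in SKNO-1 and went up with ATRA, apart from FASN. SCD, which desaturates stearoyl-CoA, was at 606 and 655 CPM with DMSO in SKNO-1, 843 and 847 CPM with ATRA, 383 and 364 CPM with Corin and 462 and 445 CPM with both. The changes were 0.42 ± 0.059, -0.76 ± 0.059 and -0.48 ± 0.059 log2, and the first was lost without either ATRA library (edgeR adjusted p = 0.0606 and 0.0677). The SCD call with ATRA was also lost with only the libraries compared (edgeR adjusted p = 0.109). ACACA, acetyl-CoA carboxylase, followed the course of SCD, at 0.41, -0.66 and -0.29 log2. In U-937 ATRA raised SCD by 0.86 and ACACA by 0.68 log2, both agents raised them by 0.38 and 0.34 log2, and Corin gave -0.08 and -0.14 log2, which did not pass. FASN, fatty acid synthase (chr17:82078338-82098294), was at 110 and 57.9 CPM with DMSO in U-937, 90.4 and 88.2 CPM with ATRA, 69.0 and 88.6 CPM with Corin, and 27.5 and 21.3 CPM with both. The combined libraries were below all others, a fall of 1.79 ± 0.38 log2 (edgeR adjusted p = 0.0127), and the call failed without the first (0.0538) or second (0.0775) library of both agents. In SKNO-1 FASN fell with Corin by 0.98 ± 0.22 log2, from 100 and 60.4 CPM to 37.1 and 44.5 CPM, and stood at 95.4 and 92.3 CPM with both. The combined effect differed between the lines by -1.97 ± 0.45 log2 (edgeR adjusted p = 0.00635).

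On the log2 scale, the effect of both agents was set against the effects of ATRA and of Corin added up. In SKNO-1 edgeR called 0 of 32 genes as departing from additivity, 8 had an unadjusted p under 0.05, DESeq2 called 3, and 0.463% of all genes were called (0.315% above and 0.149% below). Without the first DMSO library the count was 6 and without the second 18. In U-937 edgeR called 9 of 30 (6 above and 3 below the sum), where 23.4% of all genes were called (8.09% above and 15.3% below), and 5 without the second ATRA library. Among those called, MSMO1 at 0.75 ± 0.145 and CYP51A1 at 0.63 ± 0.15 log2 stood furthest above the sum, and SREBF1 at -0.82 ± 0.18 and PMVK, phosphomevalonate kinase, at -0.53 ± 0.17 log2 furthest below (edgeR adjusted p = 0.000413, 0.00353, 0.00262 and 0.0248). The PMVK call was lost without the first library of both agents, the second ATRA, the first Corin or the first DMSO library, with adjusted p-values of 0.0748, 0.123, 0.149 and 0.0859. DESeq2 did not call it either (adjusted p = 0.057), and with the GC trend removed its value was -0.26 log2 (0.262). ABCA1 departed by -0.38 log2 in SKNO-1 and 0.44 log2 in U-937, and passed in neither.

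Between-line differences in the other effects were counted as well. For ATRA 5 of 32 genes differed (3 higher in U-937 and 2 lower), where 19.4% of all genes were called (10.6% higher and 8.81% lower). The count was 9 without the first and 11 without the second SKNO-1 DMSO library, and 3 without the first U-937 ATRA library. For both agents 19 of 32 differed, 17 higher in U-937 and 2 lower, where 40.6% of all genes were called (17.9% higher and 22.7% lower). That number was 22 without the first SKNO-1 DMSO library and 20 without the second.

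Other genes of the same biology were counted in full in every comparison, and chosen comparisons are given here. Of 10 genes that handle cholesterol inside the cell, Corin in SKNO-1 raised 3 and lowered 2 (37.9% of all genes were called). Both agents raised 5 and lowered 2 in U-937 (65.3% of all genes, a near share), and raised 4 and lowered 2 in SKNO-1 (46.7%). ATRA in U-937 raised 4 and lowered 3 (41.8%), and Corin in U-937 raised 3 and lowered 0 (12.9%). With ATRA in SKNO-1 0 were called (6.76%). The Corin effect differed between the lines in 7 of 10 (12.8%), and 6 of 10 departed from additivity in U-937 (23.4%). SOAT1, which esterifies cholesterol for storage, rose with both agents in SKNO-1 by 0.85 log2 and in U-937 by 1.60 log2. NCEH1, which hydrolyses stored esters, rose in U-937 with both agents by 2.84 log2, from 16.8 and 19.7 to 123 and 139 CPM, while in SKNO-1 it was at 0.14 log2 and did not pass. TMEM97, a sterol-regulated protein of the endoplasmic reticulum, fell with Corin in SKNO-1 by 0.81 log2 and with both agents in U-937 by 2.45 log2. The list of the isoprenoid side branch, which draws on farnesyl diphosphate, holds 6 genes. With both agents 6 fell in SKNO-1, where 22% of all genes were called lower, and 5 in U-937, where 32.2% were. With ATRA in SKNO-1 and with Corin in U-937, 0 of the 6 were called (6.76% and 12.9% of all genes). With Corin in SKNO-1 4 fell, and with ATRA in U-937 3 fell (17.3% and 20.1% of all genes were called lower). PDSS1, which builds the ubiquinone tail, fell by 2.58 log2 in U-937 with both agents, from 20.8 and 23.1 to 3.46 and 3.92 CPM.

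Among 10 further fatty acid and acetyl-CoA genes, Corin raised 4 and lowered 5 in SKNO-1 (20.5% of all genes were called higher and 17.3% lower), with FADS2, a fatty acid desaturase, falling by 0.87 log2 and ACACB, the mitochondrial carboxylase, rising by 0.60 log2. In U-937 Corin raised 1 of 8 tested (8.55% of all genes). Of 5 LXR targets and partners all were tested in U-937, where ATRA raised 3 and lowered 0 (21.7% of all genes were called higher): CYP27A1, which makes 27-hydroxycholesterol, by 3.06 log2, SMPDL3A by 1.17 log2 and LPCAT3, a lysophospholipid acyltransferase, by 1.11 log2. Both agents in U-937 also raised 3 and lowered 0 (33.1% of all genes were called higher), and with Corin 0 of the 5 were called (12.9% of all genes). In SKNO-1 3 were tested. LPCAT3 rose with ATRA by 0.37 log2 and RXRA fell by 1.10 log2 (6.76% of all genes were called). RXRA went the other way with Corin in SKNO-1, rising by 0.55 log2 (20.5% of all genes were called higher). Both agents in SKNO-1 raised LPCAT3 and RXRA, by 0.33 to 0.46 log2 (24.7% of all genes were called higher). Of 6 genes of SREBP processing, Corin in SKNO-1 lowered 1, ERLIN1, by 0.53 log2, and raised 0 (17.3% of all genes were called lower). The counts of these further lists were not repeated without single libraries.

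The authors' deposited table for Corin in SKNO-1 lists 19 of the 32 genes as lower and 2 as higher at an adjusted p under 0.05, with 15 of the 18 enzymes lower, where 9.77% of all genes with an adjusted p in that table are lower and 11.3% higher. For Corin in U-937 the authors' deposited table lists 3 members as lower and 1 as higher, the 3 being enzymes (4.12% and 6.82% of all genes). In the authors' values ABCA1 has no adjusted p for Corin in U-937. NR1H3 and MYLIP do not pass there for Corin in SKNO-1 (DESeq2 adjusted p = 0.0634 and 0.0808). The authors' deposited table for ATRA holds 3 rises in SKNO-1 with 0 falls (1.63% and 2.02% of all genes), and that for U-937 holds 8 rises with 7 falls (18.9% and 19.3%). For both agents the authors' deposited tables hold 4 rises with 13 falls in SKNO-1 (12.4% and 13.4% of all genes) and 10 rises with 6 falls in U-937 (22.7% and 24.3%).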

How the data were processed

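RNA of 16 libraries was analysed from gene-level files. Per the submitters' processing notes, Trimmomatic, STAR, RSEM and DESeq2 were used with hg38; versions, the annotation release and the use of strand are not given in the sources used here. The authors deposited RSEM estimated counts (expected counts), TPM values and effective lengths for each library, and tables with a log2 fold change and adjusted p-value for their own comparisons, per the file headers. Of the positive estimated counts 20.4% were not whole, because RSEM shares out reads with several possible origins. The authors' spike-in mix has 0 rows in the table, so changes are relative to all RNA.

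Here the counts were rounded, filtered with filterByExpr and scaled by TMM, and edgeR 4.0.16 (R 4.3.3) quasi-likelihood F tests with robust settings were run on the 8 libraries of each line (17479 genes in SKNO-1, 17717 in U-937, 4 residual degrees of freedom) and, for differences between lines, on all 16 (19872 genes, 8 degrees). P-values were adjusted over all genes by Benjamini-Hochberg, and called means an adjusted p under 0.05. With 2 libraries per group a permutation test of 1 gene cannot reach 0.05. TPM values, as the authors gave them, were used to order genes within a library and, without a test, for marker levels across libraries. The common coefficient of variation came to 0.107 (SKNO-1) and 0.0945 (U-937). Leaving a group with 1 library assumes that it varies like the others.

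Per-library values were given for the regulators, receptors and transporters, and for the 3 largest called rises and falls in each comparison with DMSO (2 in the others); members of other lists could be named by up to 2 in each direction. MSMO1, DHCR7, SQLE, ACACA and some single values were added after their values were seen. The members and lists were chosen with earlier results of these data known. Gene positions are those of GENCODE 44, matched for 60261 of 60603 genes; promoters are RefSeq's on GRCh38.p14. The fit was tried on simulated counts for ATRA against DMSO alone, with the same spread for every gene and no GC trend. The simulation therefore does not cover the GC-linked difference of the SKNO-1 DMSO libraries. DESeq2 1.42.0, library totals, no filter, a replicate block, GC-trend removal (loess span 0.5), fits of the compared libraries only, and leaving out each library were tried. Figures were drawn with matplotlib 3.10.9, and intervals computed with SciPy 1.17.1.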

Additional observations from a re-analysis of the deposited data

Results flagged for a closer look

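These results differed between the 2 cell lines by a test of the difference itself, in edgeR's fit of all 16 libraries. For ATRA 5 of the 32 genes differed (15.6%, where 19.4% of all genes did), among them NR1H3 (1.75 log2 higher effect in U-937), MYLIP (0.93), INSIG1 (-0.63) and IDI1 (-0.43). For Corin 15 differed (46.9%, against 12.8% of all genes), led by HMGCS1 (1.42) and LSS (1.24). For both agents 19 differed (59.4%, against 40.6%), with MSMO1 (1.74) and ABCA1 (1.59) furthest above and FASN (-1.97) and INSIG1 (-0.78) furthest below. IDI1 with ATRA failed without the first U-937 ATRA library (adjusted p = 0.0584) and with the replicate block (0.0503), and ABCA1 with both agents failed without the first U-937 DMSO library (0.0832). Line, medium and GM-CSF cannot be told apart in these differences.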

How the results depend on the processing

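Of the 76 named gene values, 0 reversed sign in any alternative run, 59 kept their sign and call in every one, and 66 did so in all those that left out no library. Those 76 are the called values that the naming rule picked, and other values named in the text were not checked in this way. Among the unchecked are MSMO1 against DMSO, and MVD, DHCR7, MVK and SQLE with both agents against Corin in SKNO-1. All genes of the further lists are unchecked too. Replicate numbers do not pair the samples: the labels tie them to no shared batch, and same-numbered differences correlated from -0.49 to 0.42 between groups. With the replicate block, the count for both agents against Corin in SKNO-1 was 7 rather than 12 and the enzymes lower with ATRA in SKNO-1 were 0 rather than 2; the other counts stayed within 1.5 times. The block also ended the calls of INSIG1 with both agents in SKNO-1 (adjusted p = 0.0587), IDI1 in the ATRA difference between lines (0.0503), MYLIP with both agents against Corin in SKNO-1 (0.0539), and HMGCS1 (0.0576) and CYP51A1 (0.065) with ATRA in SKNO-1. For ATRA in SKNO-1 the count of 6 became 12 with the GC trend removed and 1 with only the compared libraries, and the 2 enzymes lower became 0 with library totals or only the compared libraries. For both agents against Corin in SKNO-1 the compared libraries alone gave 23. Additivity in SKNO-1 gave 3 with DESeq2, 6 unfiltered and 3 without the GC trend, against 0. For Corin in U-937 the 3 members became 5 with DESeq2, 6 with library totals and 7 with the GC trend removed, and the 1 enzyme lower became 3, 4 and 4. With library totals, enzymes lower in U-937 were 8 with ATRA and 9 with both agents, against 5 in each; with the GC trend removed, those lower with both agents against ATRA were 2 rather than 4. The 5 ATRA differences between lines became 9 with DESeq2, 10 with library totals, 9 unfiltered and 15 without the GC trend. The cause of these shifts was not tested.

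Leaving out 1 library at a time gave, for members called, 2 to 15 for ATRA in SKNO-1, 2 to 23 for both agents against Corin in SKNO-1, 0 to 18 for additivity in SKNO-1, 2 to 5 for Corin in U-937, 5 to 8 for additivity in U-937 and 3 to 11 for the ATRA difference between lines. Enzymes called lower ranged from 0 to 6 for ATRA in SKNO-1, 2 to 5 for ATRA in U-937, 0 to 3 for Corin in U-937 and 0 to 4 for both agents against ATRA in U-937. The Corin enzymes lower in SKNO-1 ranged from 13 to 17. FASN with both agents in U-937 also failed with only the compared libraries (adjusted p = 0.0762), a fit that could not be made for additivity or line differences, which need every group. Depth limits ABCA1 in U-937, at 4 and 5 counts with DMSO.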
